A study of Arabidopsis thaliana with 12 samples.

Results

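The genes described here are 10 cold and dehydration response genes of Arabidopsis thaliana, chosen by their gene IDs from the 27655 genes that have a value in both assays. They are the regulators CBF1, CBF2 and CBF3 and the effector genes COR15A, COR15B, COR47, RD29A, KIN1, LTI30 and ERD10, and all 10 were found in both tables. The rule names a pathway by gene ID, and the list was drawn up with earlier results of these data known.

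The study sequenced ribosome footprints (Ribo-seq, 6 libraries) and rRNA-depleted RNA (RNA-seq, 6 libraries) from Col-0 wild-type seedlings. Both assays used the same kind of plant: seeds were imbibed at 4 °C in the dark for 2 days, then grown in shaken liquid medium with sucrose at 22 °C under 16 h light and 8 h dark until 7 days old. At 3 h after lights on, DMSO was added to 0.1% of the medium as a mock treatment, and 3 biological replicates were harvested at each of 20 and 60 min. No library came from cold-treated or dried plants, so the values describe the pathway at growth temperature. Each deposited table gives a gene a single value that covers all 6 libraries of its assay. No spread between replicates can therefore be given, no test between assays was made, and every interval below covers counting error only.

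The cold response of Arabidopsis runs through a short cascade. The CBF genes (also called DREB1) encode AP2/ERF transcription factors that are induced quickly by low temperature and bind the CRT/DRE element in the promoters of effector genes. The effectors encode mostly hydrophilic proteins that protect membranes and proteins during freezing or water loss: COR15A and COR15B act in the chloroplast stroma, COR47, ERD10 and LTI30 are dehydrins, KIN1 is a small hydrophilic protein resembling a fish antifreeze protein, and RD29A is a widely used reporter of cold, drought and abscisic acid responses.

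All 10 genes lie beside a relative of similar coding sequence, which matters for how reads can be assigned. By blastn between coding sequences (e-value of at most 1e-05), the next coding gene on either side was similar for 10 of the 10 members, against 13.8% of 27443 nuclear genes. The CBF genes form a cluster on the minus strand of chromosome 4 of TAIR10.1, with CBF2 (AT4G25470) at 13015250 to 13016235, CBF3 (AT4G25480) at 13018010 to 13019400 and CBF1 (AT4G25490) at 13021780 to 13022996. Their coding sequences are 87.3% to 87.5% identical in pairs, leaving out gaps. Of the 654 columns of their joint alignment, 80.0% are alike in all 3. The longest stretch alike in all 3 is 30 nt. A stretch of 120 coding nt with the most differences, 30 columns, shows what lets a read be told apart between them. Capitals mark columns in which the 3 genes are not all alike, and each sequence is RefSeq TAIR10.1 in the direction of the coding strand, 5′ to 3′.
CBF1, chr4:13021958-13022077 (minus strand): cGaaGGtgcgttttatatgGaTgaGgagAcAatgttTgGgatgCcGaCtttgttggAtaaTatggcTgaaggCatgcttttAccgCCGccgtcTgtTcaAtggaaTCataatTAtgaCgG
CBF2, chr4:13015473-13015592 (minus strand): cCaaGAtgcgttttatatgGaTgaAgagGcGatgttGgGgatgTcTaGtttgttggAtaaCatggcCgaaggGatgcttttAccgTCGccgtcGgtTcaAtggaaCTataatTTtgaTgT
CBF3, chr4:13018393-13018512 (minus strand): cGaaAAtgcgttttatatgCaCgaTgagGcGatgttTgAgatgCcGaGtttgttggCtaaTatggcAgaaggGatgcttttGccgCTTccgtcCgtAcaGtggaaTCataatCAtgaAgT

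The stretch of 120 nt with the fewest differences, 13 columns, shows where a footprint is hardest to assign, with capitals again at the columns that differ.
CBF1, chr4:13022341-13022460 (minus strand): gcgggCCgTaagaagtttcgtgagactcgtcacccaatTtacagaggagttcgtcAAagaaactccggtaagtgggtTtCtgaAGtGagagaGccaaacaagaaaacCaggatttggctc
CBF2, chr4:13015856-13015975 (minus strand): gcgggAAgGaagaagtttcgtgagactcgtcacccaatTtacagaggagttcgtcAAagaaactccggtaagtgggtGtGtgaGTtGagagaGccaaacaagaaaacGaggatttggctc
CBF3, chr4:13018773-13018892 (minus strand): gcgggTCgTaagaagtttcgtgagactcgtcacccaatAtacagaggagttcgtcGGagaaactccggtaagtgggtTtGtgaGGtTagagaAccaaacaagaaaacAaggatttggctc

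Windows of 28 nt, the length of a long footprint, were compared, and shorter footprints share at least as much sequence. Of the 28-nt windows of CBF1, 14.6% also occurred in the coding sequence of another gene. That share was 14.4% in CBF2 and 2.72% in CBF3, and 84 of the shared windows of CBF1 were those shared with CBF2. In windows of 100 nt, a length chosen here for comparison, 0 windows of any member were shared. The member with the most shared sequence was KIN1 (AT5G15960, chromosome 5, 5209717 to 5210826, plus strand), of whose 28-nt windows 35.6% also occur in its neighbour KIN2. Their coding sequences of 201 nt differ at 10 positions, in capitals here (the coordinates span from start to stop codon, and introns are left out).
KIN1, chr5:5209992-5210473 (plus strand): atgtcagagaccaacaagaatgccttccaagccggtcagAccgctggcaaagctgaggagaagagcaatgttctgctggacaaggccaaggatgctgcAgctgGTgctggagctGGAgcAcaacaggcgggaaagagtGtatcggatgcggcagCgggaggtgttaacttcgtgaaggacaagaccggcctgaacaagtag
KIN2, chr5:5211966-5212441 (plus strand): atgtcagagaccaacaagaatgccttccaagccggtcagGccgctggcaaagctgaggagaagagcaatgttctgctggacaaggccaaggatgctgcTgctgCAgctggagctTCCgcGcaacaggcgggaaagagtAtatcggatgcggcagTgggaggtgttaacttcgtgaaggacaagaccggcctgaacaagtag

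In the other members at most 1.02% of the 28-nt windows were shared, and in LTI30 0. The sources used here do not say how reads matching several genes were treated. Expected counts were whole numbers in all but 75 genes in Ribo-seq and 20 in RNA-seq, and they were whole in every member. Whether reads shared by several genes were left out, rather than split between them, was not tested. If they were left out, footprints of KIN1, KIN2 and the CBF genes would be undercounted, and sums over near copies would not restore them.

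The levels of the members ranged widely, with the dehydrin COR47 at the top and the CBF genes and COR15B at the bottom. Levels are given as TPM, which scales counts for effective coding length and for the total, so that genes can be compared. In Ribo-seq the effectors had a median of 28.4 TPM and the regulators one of 0.51 TPM. In RNA-seq the medians were 15.8 TPM in the effectors and 0.42 TPM in the regulators. A typical gene lay in the middle of this range, as 5 members exceeded the median nuclear gene in Ribo-seq (4.39 TPM) and 5 exceeded it in RNA-seq (4.77 TPM), the same 5 effectors in both.

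**Figure D1:**
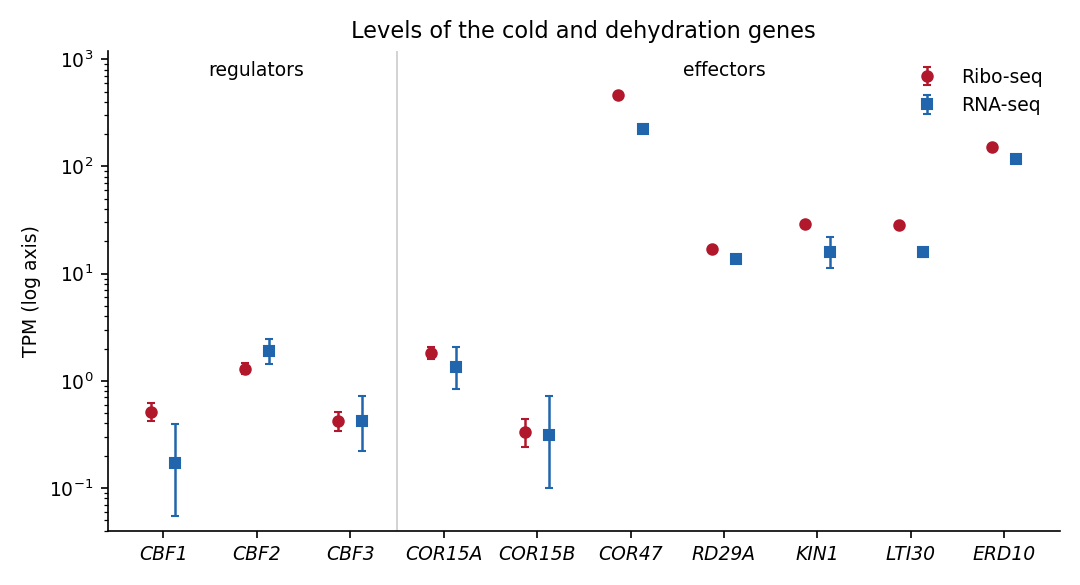
Ribo-seq (circles) and RNA-seq (squares) TPM of the 10 members on a log axis, with exact 95% Poisson intervals for counting error. COR47 and ERD10 stand above the other members, at 460.5 and 151.7 TPM in Ribo-seq, while the 3 CBF genes, COR15A and COR15B are under 2 TPM in both assays.

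Among the regulators, CBF2 was the most abundant and all 3 were scarce. CBF2 had 1.3 TPM in Ribo-seq (275 footprints, 95% Poisson interval 1.15 to 1.46 TPM) and 1.88 TPM in RNA-seq (58 counts, 1.43 to 2.43 TPM). CBF1 had 0.51 TPM in Ribo-seq (106 footprints, 0.418 to 0.617 TPM) and 0.17 TPM in RNA-seq (5 counts, 0.0552 to 0.397 TPM). CBF3 had 0.42 TPM in Ribo-seq (89 footprints, 0.337 to 0.517 TPM) and 0.42 TPM in RNA-seq (13 counts, 0.224 to 0.718 TPM). In Ribo-seq the interval of CBF2 lay above that of both others, while CBF1 and CBF3 overlapped. In RNA-seq, too, CBF2 stood above, and CBF1 and CBF3 overlapped. In order of Ribo-seq level the regulators ranked 17724 (CBF2), 19510 (CBF1) and 19784 (CBF3) of 27445 nuclear genes. All 3 therefore had footprints at growth temperature, at levels below those of most nuclear genes.

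The regulators are single-exon genes encoding 213 codons in CBF1 and 216 in each of CBF2 and CBF3, beside a stop codon. Their coding length is thus nearly the same, and their differences in level do not turn on the length term. Summed over the cluster there were 470 footprints and 76 RNA-seq counts.

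Among the effectors, the neighbouring dehydrins COR47 and ERD10 made up most of the level. COR47 (AT1G20440, chromosome 1, 7084409 to 7086873, minus strand) had 460.5 TPM in Ribo-seq (120216 footprints) and 222.6 TPM in RNA-seq (9048 counts). ERD10 (AT1G20450, chromosome 1, 7087903 to 7089606, minus strand) had 151.7 TPM in Ribo-seq (38805 footprints) and 117.8 TPM in RNA-seq (4673 counts). Together they took 88.9% of the summed Ribo-seq TPM of the 7 effectors and 87.9% of the summed RNA-seq TPM. COR47 ranked 375 of 27445 nuclear genes in Ribo-seq and 524 in RNA-seq, and ERD10 ranked 1157 in Ribo-seq and 1003 in RNA-seq. These dehydrins were therefore among the abundant mRNAs of seedlings that had not been cold-treated.

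A middle group of 3 effectors had levels some way above the median nuclear gene. KIN1 had 28.97 TPM in Ribo-seq (1707 footprints) and 15.88 TPM in RNA-seq (37 counts, 95% interval 11.2 to 21.9 TPM). LTI30 (AT3G50970, chromosome 3, 18940643 to 18941611, plus strand) had 28.36 TPM in Ribo-seq (5330 footprints) and 15.78 TPM in RNA-seq (415 counts). RD29A (AT5G52310, chromosome 5, 21240717 to 21243644, plus strand) had 17.1 TPM in Ribo-seq (12193 footprints) and 13.67 TPM in RNA-seq (1768 counts). KIN1 and LTI30 could not be ordered in either assay, since their intervals overlapped. RD29A lay below both in Ribo-seq, and in RNA-seq its interval overlapped those of KIN1 and LTI30. The TPM of KIN1 rests on few RNA-seq counts and on a very small effective length, described below.

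COR15A and COR15B, in contrast, were under 2 TPM in both assays, like the regulators. COR15A (AT2G42540, chromosome 2, 17710441 to 17712330, minus strand) had 1.81 TPM in Ribo-seq (233 footprints, 1.59 to 2.06 TPM) and 1.35 TPM in RNA-seq (21 counts, 0.836 to 2.06 TPM). COR15B (AT2G42530, chromosome 2, 17708593 to 17710433, minus strand) had 0.33 TPM in Ribo-seq (44 footprints, 0.240 to 0.443 TPM) and 0.31 TPM in RNA-seq (5 counts, 0.101 to 0.723 TPM). The Ribo-seq level of COR15A lay above that of CBF2, the next member in order, by 1.39-fold with intervals that did not overlap. In RNA-seq the order was the other way, CBF2 above COR15A, but the intervals overlapped. The intervals of COR15B overlapped those of CBF1 and CBF3 in both assays. The label of effector thus covers genes with levels from 0.33 to 460.5 TPM in Ribo-seq and from 0.31 to 222.6 TPM in RNA-seq.

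The tables average COR15A over 4 transcripts. Its length in the RNA-seq table, 420 nt, equals the coding length of transcript 2, with 139 codons beside the stop codon. In the Ribo-seq table its length is 406.8 nt, which is shorter because RSEM averages the length over transcripts by their share.

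Footprints per RNA were compared as a log2 ratio, with Ribo-seq TPM on top, RNA-seq TPM below and 0.1 added to each, for the 21422 nuclear genes with an RNA-seq TPM over 0.1. Across these genes the median ratio was 0.12, with quartiles at -0.42 and 0.57. The effectors had a median ratio of 0.40 and the regulators one of 0.00. These medians depended on the unit: the effectors had 0.79 and the regulators 0.17 in CPM (counts scaled to the total, without a length term), and with TPM rescaled over nuclear genes only the effectors had -0.02 and the regulators -0.37. Ratios exceeded the nuclear median in 6 of the 7 effectors and in 1 of the 3 regulators. A ratio of 1 or more, at least 2-fold more Ribo-seq than RNA-seq TPM, was found in 2 of the 10 members, COR47 and CBF1, against 8.46% of the nuclear genes. A ratio of -1 or less was found in 0 members, against 10.2% of the nuclear genes. With 10 genes these counts are too small to set the members apart from the background. With TPM rescaled over nuclear genes only, 0 members were at least 2-fold higher and the nuclear shares became 2.66% higher and 19.8% lower. This rescaling moved the nuclear median to -0.32, so it shifted members and background together.

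**Figure D2:**
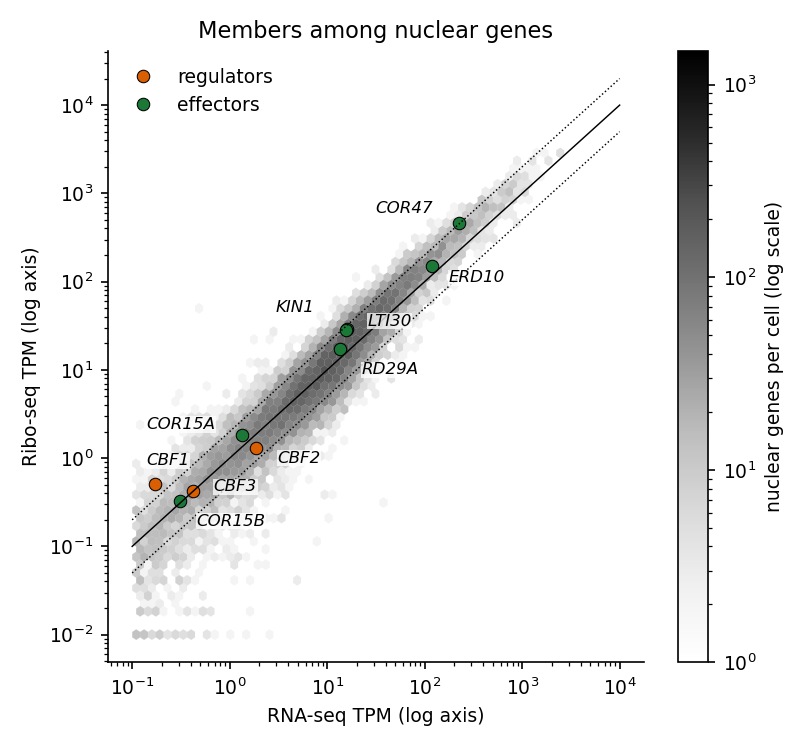
Ribo-seq TPM against RNA-seq TPM of nuclear genes (grey cells, darker for more genes) with the members in colour, both axes log. The solid line marks equal TPM and the dotted lines a 2-fold difference; CBF1 and COR47 lie above the upper dotted line, and the other 8 members lie between the lines.

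COR47 had the only ratio of 1 or more whose interval was narrow. Its ratio was 1.05 (interval of at least 95% from the counting error of both counts, 1.01 to 1.09), at percentile 92.7 of nuclear genes. ERD10, its neighbour and fellow dehydrin, had a ratio of 0.36 (0.30 to 0.43) at percentile 63.7. The 2 intervals did not overlap. Relative to ERD10, COR47 was 3.04-fold higher in Ribo-seq but 1.89-fold higher in RNA-seq. Their coding lengths, 798 and 783 nt, are close, so the length term touches both alike. COR47 stayed above ERD10 in every unit, at 1.19 and 0.51 in CPM and at 0.91 and 0.23 with counts per whole coding length.

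LTI30 and KIN1 came next, with ratios of 0.84 (0.64 to 1.05) and 0.86 (0.26 to 1.52). RD29A had a ratio of 0.32 (0.22 to 0.43). The intervals of these 3 genes and of both abundant dehydrins lay wholly above the nuclear median. For RD29A this depended on the unit, since its ratio exceeded the nuclear median by 0.21 in TPM, by 0.03 in CPM and by 0.02 with counts per whole coding length. How many nuclear genes have an interval wholly above the median was not counted, so no excess over the background is claimed. COR15A at 0.40 (-0.46 to 1.32) and COR15B at 0.07 (-1.44 to 1.61) had intervals that held the nuclear median. No excess or lack of footprints per RNA was detectable for the COR15 genes at this depth.

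Among the regulators, the ratios were spread widely, but on few RNA-seq counts. CBF1 had the highest ratio of all members, 1.18, with an interval of -0.08 to 2.33 that held both 0 and the nuclear median. Its 106 footprints stood against 5 RNA-seq counts, and with 1 in place of 0.1 added to both TPM values the ratio was 0.37. CBF3 had a ratio of 0.00 (-1.02 to 1.06). CBF2, with the most RNA-seq counts of the 3, had the lowest ratio, -0.50 (-1.09 to 0.11), at percentile 22.2 of nuclear genes. The upper end of its interval, 0.110, fell just under the nuclear median of 0.116. The intervals of the 3 regulators overlapped in the range from -0.08 to 0.11. Summed over the cluster the ratio was -0.14 (-0.64 to 0.38). That interval held 0 and the nuclear median, so the cluster as a whole was not distinguishable from a typical gene.

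**Figure D3:**
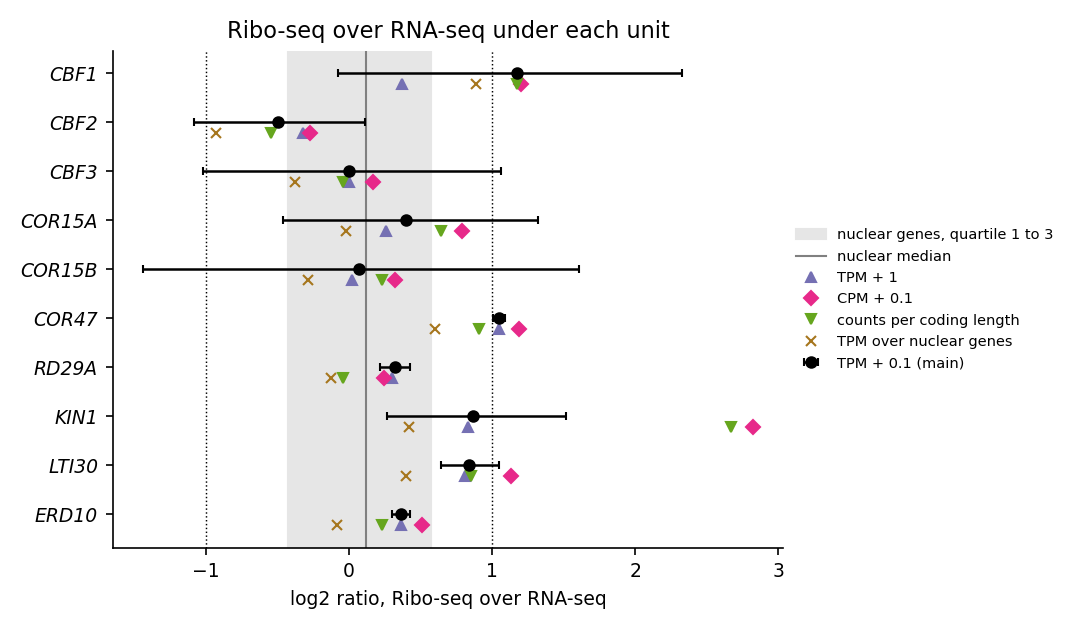
Log2 ratio of Ribo-seq over RNA-seq for each member (black, with intervals of at least 95% for counting error) and under 4 other units (coloured), beside the quartiles and the median of nuclear genes. The intervals of COR47, RD29A, KIN1, LTI30 and ERD10 lie above the nuclear median, and KIN1 moves to 2.82 in CPM.

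The ratio of KIN1 turned on the length term. RSEM divides by an effective length, the coding length less about a fragment length, and for a coding sequence of 201 nt this left 35.1 nt in RNA-seq (17.4% of the length) but 174 nt in Ribo-seq (86.6%). KIN1 had 46.1 footprints per RNA-seq count, the most of any member, against 5.83 over the tables as a whole. Its ratio was 0.86 in TPM, 2.67 with counts per whole coding length and 2.82 in CPM. Short coding sequences in general had high ratios without the effective length: over 361 nuclear genes of more than 180 and up to 240 nt the median was -0.19 in TPM and 1.42 in CPM. KIN1 lay above the upper quartile of that class in both, which was 0.69 in TPM and 2.21 in CPM. Both units rest on the same 37 RNA-seq counts. Its interval in TPM, 0.26 to 1.52, lay above the class median but held the upper quartile. The size of its ratio was not settled by the 2 units. KIN2, the near copy of equal coding length, had 37.05 TPM in Ribo-seq (2183 footprints) and 10.73 TPM in RNA-seq (25 counts), a ratio of 1.78 (1.08 to 2.56). Summed over both copies the ratio was 1.31 (0.85 to 1.80).

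**Figure D4:**
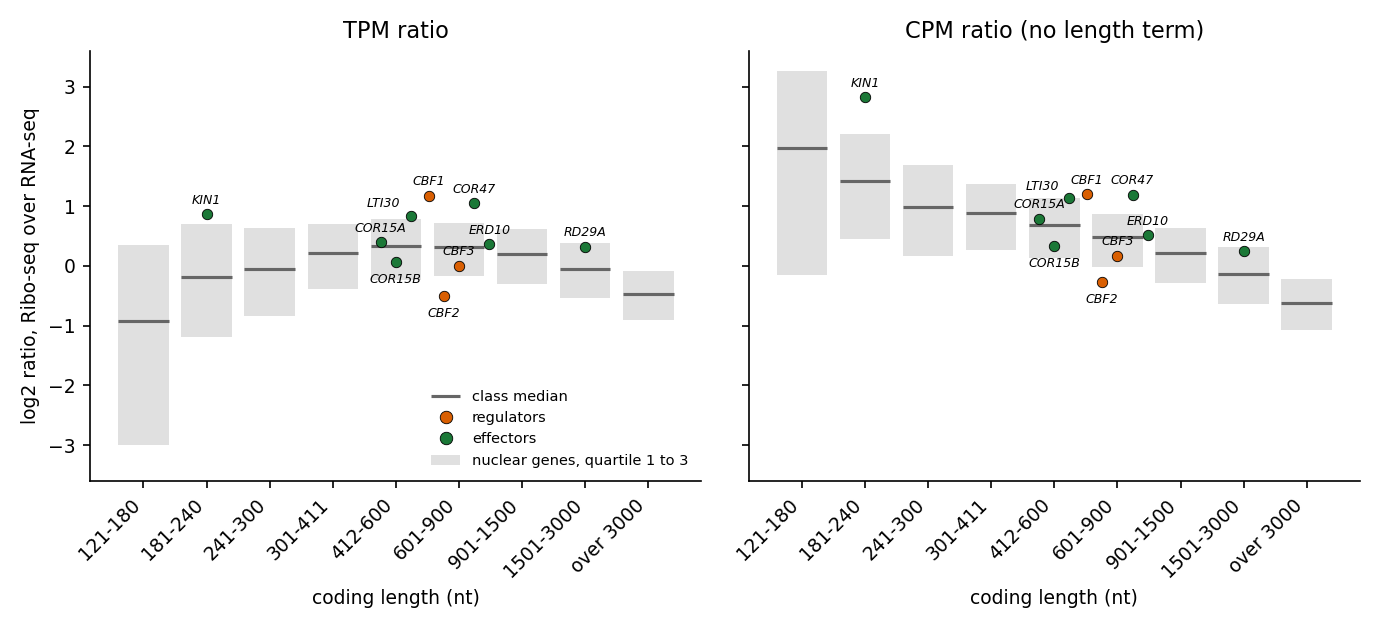
Log2 ratio of Ribo-seq over RNA-seq by coding length, in TPM (left) and in CPM (right), with the quartiles (bars) and median (line) of nuclear genes in each length class. The members are points; KIN1, CBF1 and COR47 lie above the upper quartile of their class in both panels.

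Set beside nuclear genes of their own length, COR47 and CBF1 lay above the upper quartile of the 3611 genes of more than 600 and up to 900 nt in TPM, CPM and counts per coding length. The 3 units rest on the same counts, and the interval of CBF1 in TPM held the median of the class, 0.32. CBF2 lay below the lower quartile of the same class in all 3 units. Its interval in TPM, -1.09 to 0.11, held that quartile (-0.17) and lay below the class median. CBF3, ERD10, COR15A, COR15B and RD29A lay between the quartiles of their class in all 3. LTI30 lay just above the upper quartile of its length class of 2218 genes, which ends at 600 nt, in TPM (0.84 against 0.78) and inside the quartiles in the other units.

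Some features that the choice of genes did not use are given beside those of all nuclear genes. The coding sequences of the members were short, 9 of the 10 being under the nuclear median of 1035 nt, and rich in G and C. The G and C content exceeded the nuclear upper quartile of 46.3% in 9 members, with 55.7% in KIN1 as the highest and 44.0% in LTI30 as the lowest. The members include neighbours of similar coding sequence, so the counts in this paragraph are not over unrelated genes. The CBF genes and LTI30 have no intron, as is true of 20.2% of nuclear genes. In the RefSeq models, 9 members have at least 1 ATG in the annotated 5′ untranslated region, CBF2 being the exception, against 59.1% of the 23217 nuclear genes with such a region. COR47 has the longest such region, 1209 nt with 17 ATGs, and CBF2 has the shortest, 149 nt. The nuclear median length is 173 nt, and all members but CBF2 exceed it. The comparison of ATGs was not adjusted for this length. The annotated start may not be the one used in these seedlings, and whether these ATGs begin a translated upstream ORF was not analysed here.

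CBF proteins bind the CRT/DRE element. Its core, CCGAC on either strand, was searched in the 500 nt before the annotated transcript start. It was found in 5 of the 7 effectors and in 0 of the 3 regulators, against 21.6% of 27442 nuclear genes. These effectors are known as CBF targets, so the count is a description of the list, and 3 regulators are too few to set them apart from the background. The 10 matches are shown with 10 nt on each side (fewer after the last LTI30 match, where the window ends), core in capitals, read along the gene's strand (GTCGG is the core on the opposite strand).
COR15A, chr2:17712458-17712482 (minus strand): ttgcaaccttGTCGGtttattttgt
COR15A, chr2:17712395-17712419 (minus strand): aacttgttggCCGACatacatttgt
COR15B, chr2:17710684-17710708 (minus strand): tcatctagaaGTCGGtatgccacac
COR47, chr1:7087227-7087251 (minus strand): ggtatcatgtGTCGGtagagtgacc
RD29A, chr5:21240567-21240591 (plus strand): tagacatggaCCGACtactaataat
RD29A, chr5:21240617-21240641 (plus strand): aaatatcataCCGACatcagtttga
RD29A, chr5:21240674-21240698 (plus strand): agatatactaCCGACatgagttcca
LTI30, chr3:18940532-18940556 (plus strand): ttaaaattacGTCGGtcgctaacca
LTI30, chr3:18940555-18940579 (plus strand): cactactacaCCGACgtcttacttg
LTI30, chr3:18940624-18940642 (plus strand): cttttacgatGTCGGccaa

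RD29A and LTI30 have 3 matches each, COR15A has 2, and COR47 and COR15B have 1 each. COR15B begins only 7 nt after the end of COR15A, so its window lies inside the COR15A gene. KIN1 and ERD10 had no match in this window. In 1000 nt before the start codon, all 7 effectors and 0 regulators had the core, against 39.5% of nuclear genes. That window includes the annotated 5′ untranslated region and introns. In COR47 it lies wholly after the annotated transcript start, as the untranslated region has 1209 nt. The COR47 match there is thus another than the one shown above. In the window before the transcript start, LTI30 and RD29A, with 3 matches each, had 28.36 and 17.1 TPM in Ribo-seq, and COR47, with 1, had 460.5 TPM. The number of matches depended on the window, as ERD10 had 0 there and 3 in the 1000 nt before the start codon. Whether the number of matches bears on the level was not tested.

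The core of the abscisic acid response element, ACGTG on either strand, was found in COR15A, KIN1, ERD10, CBF2 and CBF3, and in 35.8% of nuclear windows. In 1000 nt before the start codon all 7 effectors and all 3 regulators had this core, against 54.2%. A palindromic CACGTG counts on both strands, as in COR15A, CBF2 and ERD10. The evening element AAAATATCT, bound by clock factors, was found on either strand in CBF1 and CBF2 and in 0 effectors, against 4.45% of nuclear windows. In the longer window of 1000 nt before the start codon it was found in 4 effectors and all 3 regulators, against 7.24%. CGCG, the core bound by CAMTA factors, was found in CBF2 in the shorter window, against 18.1% of nuclear genes, and in COR47, RD29A, ERD10 and CBF2 in the longer one, against 34.6%. A match in these windows shows the letters only.

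Neighbouring relatives differed in level to very different degrees. The most alike pair, KIN1 and KIN2, with 191 of 201 positions identical, differed little, KIN1 over KIN2 being 0.782-fold in Ribo-seq and 1.48-fold in RNA-seq. The pairs with the largest differences were among the least alike. Where aligned without gaps, 79.9% of positions were identical for RD29A and RD29B and 71.3% for LTI30 and XERO1. Over the whole alignment, gaps included, these shares were 56.3% and 45.2%. RD29A stood 22.5-fold above RD29B in Ribo-seq and 25.8-fold in RNA-seq. RD29B, the neighbour that is known to respond mainly to abscisic acid, had 0.76 TPM in Ribo-seq (471 footprints) and 0.53 TPM in RNA-seq (59 counts). LTI30 stood 57.9-fold above its neighbour XERO1 in Ribo-seq and 21.0-fold in RNA-seq. XERO1, a dehydrin, had 0.49 TPM in Ribo-seq (60 footprints) and 0.75 TPM in RNA-seq (10 counts). COR15A stood 5.48-fold above COR15B in Ribo-seq and 4.35-fold in RNA-seq. In 3 of these loci 1 copy thus carried most of the signal, whereas both copies were abundant at the COR47 and ERD10 locus.

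Of the dehydrin family of 10 genes, 3 are members, and they were not its most abundant genes. HIRD11 (AT1G54410), a small dehydrin, had 1494 TPM in Ribo-seq and 539.4 TPM in RNA-seq. ERD14, an acidic dehydrin like COR47 and ERD10, had 1191 TPM in Ribo-seq and 470.9 TPM in RNA-seq. COR47, ERD10 and LTI30 came next in both assays. The remaining 5 were under 6 TPM in Ribo-seq, with RAB18, the dehydrin best known for induction by abscisic acid, at 1.2 TPM in Ribo-seq and 0.84 TPM in RNA-seq. The median ratio of the 9 dehydrins with a ratio was 0.84, and 4 had a ratio of 1 or more (HIRD11 at 1.47, ERD14 at 1.34, AT4G38410 at 1.28 and COR47 at 1.05), against 8.46% of nuclear genes. The lowest was XERO1 at -0.53 (-1.78 to 0.84).

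**Figure D5:**
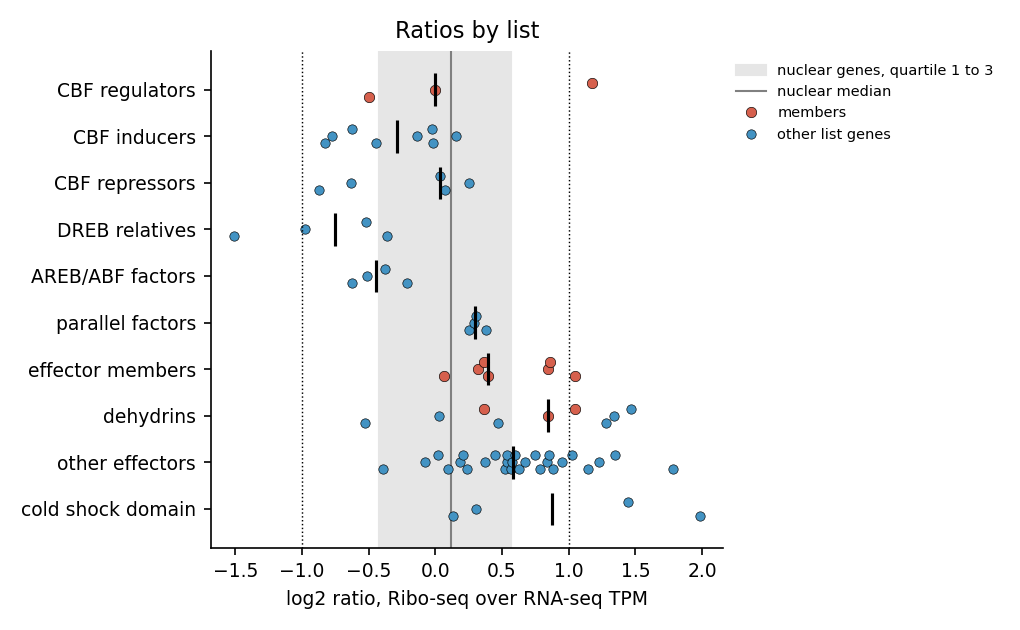
Log2 ratio of Ribo-seq over RNA-seq TPM for the genes of each list with an RNA-seq TPM over 0.1 (points, members in red), with the median of each list as a bar and the nuclear quartiles shaded. The effector lists lie mostly to the right of the nuclear median, and the DREB relatives and AREB/ABF factors lie to its left.

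Other cold and dehydration effectors had ratios mostly above the nuclear median. Of 28 such genes, 24 had a ratio above the nuclear median and their median was 0.58. A ratio of 1 or more was found in 5, against 8.46% of nuclear genes, namely KIN2, GOLS3 (a galactinol synthase induced by cold), ADH1 (alcohol dehydrogenase), COR413PM1 (a membrane protein) and ERD7. A ratio of -1 or less was found in 0, against 10.2%. The lowest belonged to LEA4-5, a late embryogenesis abundant protein, at -0.39 (-0.90 to 0.14). The 4 cold shock domain proteins, which bind RNA, had a median of 0.87, with CSP1 highest at 1.98 (1.83 to 2.14) and CSP2 lowest at 0.13 (0.06 to 0.20).

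The factors known to act on the CBF genes lay mostly below the nuclear median. Of 8 inducers 7 lay below the nuclear median, with a list median of -0.29. OST1, a kinase of abscisic acid signalling, was highest at 0.15 (-0.02 to 0.33), and CAMTA1, a calmodulin-binding transcription factor, was lowest at -0.83 (-0.93 to -0.73). The 5 repressors had a median of 0.04, from PHYB (phytochrome B) at -0.87 (-0.94 to -0.80) to PIF4 at 0.25 (0.12 to 0.39). Of these genes, only CAMTA2, CAMTA3 and PHYB have coding sequences of more than 3000 nt. Nuclear genes of that length had a median ratio of -0.47. Beside the median of their own length class, 7 of the 8 inducers and 3 of the 5 repressors were lower, but only 2 inducers and 1 repressor were under its lower quartile. Their median levels were above that of the CBF genes, with 11.5 TPM for the inducers and 12.0 TPM for the repressors in Ribo-seq. The 4 AREB/ABF factors of abscisic acid signalling all lay below the nuclear median, from ABF1 at -0.62 (-0.78 to -0.46) to ABF3 at -0.21 (-0.35 to -0.07).

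Closest to the CBF genes in sequence family are the DREB relatives, and these were scarce as well. The 6 relatives had a median of 0.36 TPM in Ribo-seq and 0.58 TPM in RNA-seq. All 4 with a ratio lay below the nuclear median, with DREB2B at -0.36 (-0.97 to 0.28) and DREB2C at -0.98 (-1.48 to -0.46). The only pathway gene with a ratio of -1 or less, DDF1 at -1.51 (-2.61 to -0.28), had 7 footprints and 8 RNA-seq counts. CBF4 had 3 footprints and 2 RNA-seq counts, which gives no ratio here. The 4 parallel factors, which are induced by cold or stress beside the CBF genes, lay above the nuclear median, from HSFC1 at 0.25 (-0.02 to 0.53) to ZAT10 at 0.38 (0.13 to 0.63). In all, 10 of the 63 pathway genes outside the members with a ratio were at least 2-fold higher, against 8.46% of nuclear genes, and 1 was at least 2-fold lower, against 10.2%.

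The tables hold 299584069 expected counts in Ribo-seq and 51390094 in RNA-seq, so RNA-seq sets the precision for scarce genes, and 4 members had under 25 RNA-seq counts. Shoot markers were abundant in both assays (4 genes, summed 22789 TPM in Ribo-seq and 17950 TPM in RNA-seq) and root markers were present (5 genes, summed 4667 TPM in Ribo-seq and 3149 TPM in RNA-seq), nearly all from the root beta-glucosidase BGLU23 at 4634 TPM in Ribo-seq and 3121 TPM in RNA-seq. The 3 mature seed markers summed to 18.8 TPM in Ribo-seq and 16.1 TPM in RNA-seq. The Ribo-seq descriptions in the labels name root, while titles and source name seedlings, and both shoot and root markers were present in the Ribo-seq table. In bulk seedlings, fewer cells expressing a gene and less RNA per cell cannot be told apart.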

How the data were processed

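Ribo-seq and RNA-seq of 7-day Arabidopsis Col-0 seedlings comprised 6 libraries each. The submitters' processing notes name RSEM 1.3.1 and STAR beside Bowtie2 2.3.4.1. For each assay the authors deposited a gene table from RSEM that holds unnormalized expected counts, and TPM and FPKM over effective coding length. FPKM was not used. The sources used here give neither the annotation nor how libraries were combined. All 16748 nuclear genes with 1 transcript had the coding length of their TAIR10.1 model, which was used for positions and sequences (RefSeq).

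Ratios are log2 values of TPM in Ribo-seq divided by TPM in RNA-seq, with 0.1 added to each, for genes with an RNA-seq TPM over 0.1. Intervals combine exact Poisson intervals of 97.5% for each count, so they cover at least 95% and counting error only. They were checked on simulated counts. With 1 value per assay no test was made. Alternatives were a pseudocount of 1, none, CPM, counts per whole coding length, an RNA-seq count of at least 10, and TPM over nuclear genes. 

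Members and lists were chosen with earlier results of these data known. Named beside the members are the highest and lowest ratio of each list with at least 10 RNA-seq counts and the neighbours KIN2, RD29B and XERO1; others were named after their values were seen. Where several transcripts exist, the model with coding length nearest to the RNA-seq table's was used. Shared windows are exact matches on the coding strand. Python 3.11.15, numpy 2.4.6, pandas 2.3.3, scipy 1.17.1, Biopython 1.88, matplotlib 3.10.9, BLAST+ 2.17.0 and MAFFT were used.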

Additional observations from a re-analysis of the deposited data

How the results depend on the processing

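The number of members at least 2-fold higher in Ribo-seq was 2 in the report, against 8.46% of nuclear genes. It was 1 with a pseudocount of 1 (COR47), against 6.17%, and 4 in CPM (CBF1, COR47, KIN1 and LTI30), against 14.6%. With counts per whole coding length it was 2 (CBF1 and KIN1), against 8.88%, as COR47 had a ratio of 0.91. Where at least 10 RNA-seq counts were required, which leaves CBF1 and COR15B without a value, it was 1, against 8.18%. With TPM over nuclear genes only it was 0, against 2.66%. No member was at least 2-fold lower under any of these settings. Of the other pathway genes, 10 were at least 2-fold higher in the report. This number was 9 with a pseudocount of 1, 14 in CPM and 3 with TPM over nuclear genes only. The nuclear shares above moved the same way. The number of other pathway genes at least 2-fold lower was 1 in the report, against 10.2% of nuclear genes. It was 0 with a pseudocount of 1, against 4.87%, and 0 with at least 10 RNA-seq counts, against 8.99%. With counts per whole coding length it was 5, against 14.2%, and with TPM over nuclear genes only it was 8, against 19.8%. With no pseudocount, a setting chosen after seeing the data, it was 2, against 11%. TPM over nuclear genes moves each ratio by the same amount apart from the pseudocount, since nuclear genes hold 95.2% of the Ribo-seq TPM and 69.8% of the RNA-seq TPM. The median of the effectors was 0.65 with counts per whole coding length and 0.62 with at least 10 RNA-seq counts, where that of the regulators was -0.04 and -0.25. With TPM over nuclear genes RD29A and ERD10 had ratios of -0.12 and -0.08, still above the nuclear median of -0.32. No paired analysis was possible because each assay has 1 value per gene for its 6 libraries. For the same reason no replicate could be left out. Depth limits CBF1, CBF3, COR15A and COR15B, whose intervals span over 1.7 units of log2.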
